A study of Mus musculus with 25 samples.

Results

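The high fat high sucrose (HFHS) diet was followed in the hearts of wild-type (WT) mice. The 10 mice were 5 WT CNTL and 5 WT HFHS animals, out of 25 mice in the whole series. They were picked by their genotype and treatment labels, and each library was matched to its mouse by the library name. All were male littermates of GPx4+/- mice, which carry a heterozygous deletion of glutathione peroxidase 4, kept by backcross to C57BL6/J. Diets began at 8 to 10 weeks of age and ran for 16 weeks. The CNTL diet held 6% of its energy as fat and about 75% as starch-based carbohydrate, and the HFHS diet held 35.5% as lard, 1.5% as cholesterol and 38% as sucrose. For comparison, 5 GPx4+/- CNTL and 5 GPx4+/- HFHS mice were read in the same way, and a further 5 WT HFHS mice were given 80 mM carnosine to drink, starting 7 weeks into the diet. The mice were killed after a fast and an injection of dextrose or of saline, and the labels do not say which mouse had which, so the injection and the diet could not be separated here. Nothing in the labels names litters, cages or library batches, so p-values measure the spread between these mice.

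RNA came from a piece of left ventricle of each mouse. The expression unit is TPM, a transcript's share of the library corrected for its length and set to a total of 1000000. Transcripts were summed to genes and divided by a factor per library (scaled TPM), and the 11983 genes that averaged 1 scaled TPM or more over all mice were tested. A gene is called when its adjusted p from limma is under 0.05, and log2 fold changes are taken after adding 0.5 to the scaled TPM, so that changes of genes near 1 come out too small. TPM carries no read depth, so no counting error can be given.

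Heart muscle RNA was abundant in every library. The 12 cardiomyocyte markers summed to between 63510 and 73940 scaled TPM in WT CNTL and between 60910 and 70040 in WT HFHS. Mitochondrial transcripts took 39.4% ± 2.91 of the TPM in WT CNTL and 37.9% ± 4.42 in WT HFHS (SD over 5 mice, exact permutation test, two-sided p = 0.540). The libraries were not all alike, however. WT CNTL replicate 3 held 4783 scaled TPM of the 10 atrial markers, against 162.5 to 191.4 in the other WT CNTL mice and 64.9 to 322.7 in WT HFHS. WT HFHS replicate 4 held 803.7 of the 10 smooth muscle markers, against 361.8 to 503 in the other WT HFHS mice and 333.4 to 385.7 in WT CNTL. WT CNTL replicates 2 and 4 were nearer to each other than any other pair among all 300 pairs of mice. Over 5530 protein-coding genes that averaged 10 scaled TPM or more, their median absolute log2 difference was 0.0656, and for the other 19 pairs within a WT group it lay between 0.0890 and 0.151. The 99th percentile of that difference was 0.386 for this pair and 0.507 to 1.06 for the others, and 2 genes differed more than 2-fold. The next nearest of the 300 pairs was not far off, and its mice differ in genotype. It was WT CNTL replicate 4 with GPx4+/- CNTL replicate 5, at a median of 0.0794 and a 99th percentile of 0.482. Without read counts it cannot be tested whether WT CNTL replicates 2 and 4 differ by more than sampling noise, as separate mice would. The comparison was therefore also run with these libraries averaged into 1 sample, and results are given both ways.

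Heart muscle makes most of its energy by burning fatty acids, which enter the cell from circulating triglyceride and fatty acid, travel on small binding proteins and cross into mitochondria on carnitine. Glucose, lactate and ketone bodies are the other fuels, and insulin shifts the balance toward glucose. Fatty acids themselves activate the nuclear receptor PPAR alpha, which switches on genes for fat oxidation. A fat- and sugar-rich diet raises the supply of fatty acids to the heart and is widely used to bring on obesity and insulin resistance in mice.

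Of 11983 genes tested in WT hearts, 142 (1.19%) were called, 79 higher and 63 lower on HFHS, and 1979 (16.5%) had an unadjusted p under 0.05. The deepest fall was -1.07 on the log2 scale. The change exceeded 1 in 4 of these genes and was under 0.5 in 90. The groups did not overlap for 118 of the 142, while 541 of all tested genes (4.51%) had groups that did not overlap. With WT CNTL replicates 2 and 4 averaged the count was 36, all of them among the 142. Leaving out a single mouse gave between 36 genes (without WT CNTL replicate 2) and 202 (without WT CNTL replicate 3). It was 43 without WT CNTL replicate 4, 72 without WT CNTL replicate 1, 76 without WT CNTL replicate 5, 72 without WT HFHS replicate 2, 85 without WT HFHS replicate 3, 91 without WT HFHS replicate 4, 83 without WT HFHS replicate 5 and 125 without WT HFHS replicate 1. With the smooth muscle marker score as a covariate it was 31, of which 28 were among the 142. None of the 142 changed direction in any of these fits.

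**Figure D1:**
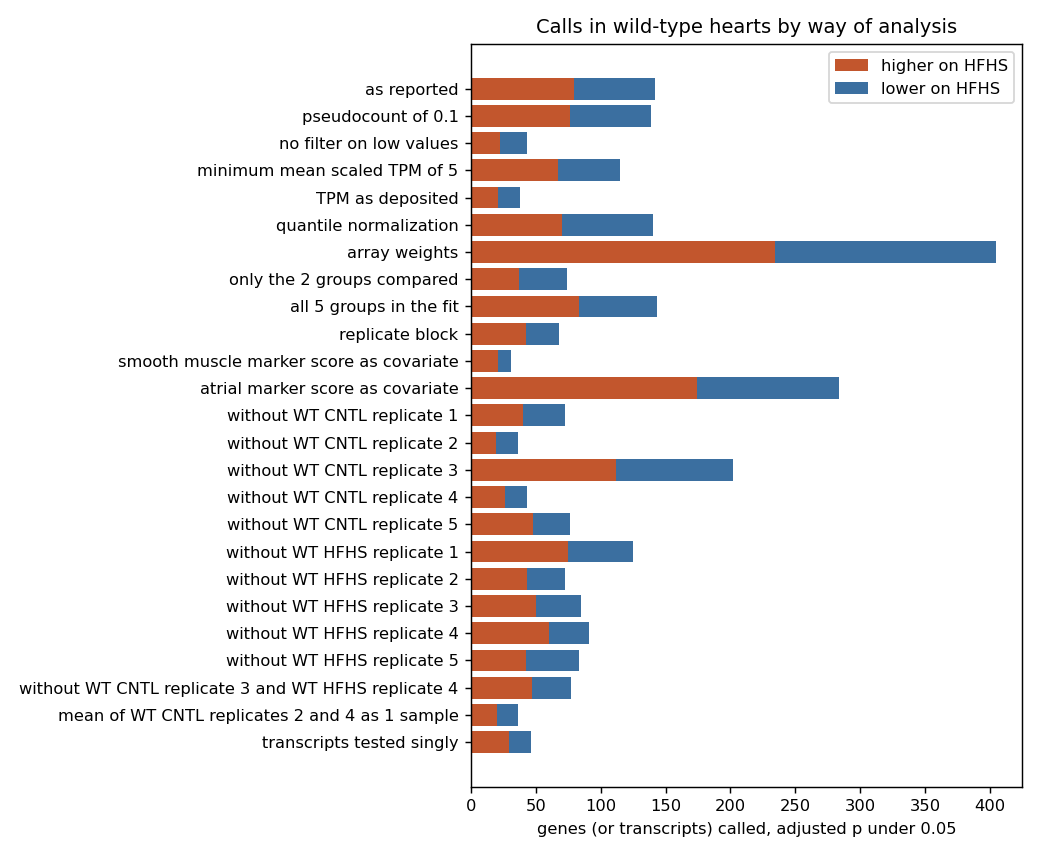
Number of genes called between WT CNTL and WT HFHS hearts (transcripts in the lowest bar) for each way of running the comparison, with genes higher on HFHS in orange and lower in blue. The count was 142 as reported, 36 with WT CNTL replicates 2 and 4 averaged, and between 31 and 405 over all settings.

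A core of 32 genes, 17 higher and 15 lower, was called whichever mouse was left out and also with WT CNTL replicates 2 and 4 averaged. Of these, 30 had groups that did not overlap and 25 were called in GPx4+/- hearts too. Of the 32, 19 also kept their call with the smooth muscle score as covariate, and 15 in every setting tried. With that covariate the adjusted p was 0.0539 for Agk, Ndrg4 and P4ha2, and 0.0551 for Nacc2, Dhdds and Vwa8. It was 0.0643 for Vps8, 0.0649 for Rbmx, 0.0716 for Tesc and 0.0944 for Lnpep. The highest values were 0.103 for Ccnd2, 0.110 for Tob1 and 0.147 for Mylk4. All of these genes kept their direction. Every called gene outside this core lost its call when at least 1 mouse was left out. The core is described first, with the values of each mouse in the order of replicates 1 to 5.

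Dbi, the acyl-CoA binding protein that carries activated fatty acids inside the cell (chromosome 1), was among the core genes that rose. It stood at 182.5, 176.9, 168.2, 164.5 and 180.8 scaled TPM in WT CNTL and at 282.2, 212.2, 235.6, 237.0 and 264.6 in WT HFHS. The groups were apart, and the rise was 0.49 (standard error 0.08, adjusted p = 0.00508).

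Sod3, the superoxide dismutase that is secreted into the matrix (chromosome 5), rose by 0.61 (standard error 0.10, adjusted p = 0.00508). Its WT CNTL values were 12.8, 11.6, 13.6, 12.3 and 11.1 scaled TPM and its WT HFHS values 16.3, 19.6, 17.9, 24.7 and 17.4, the highest being replicate 4, the mouse with the most smooth muscle marker RNA. The change held with the smooth muscle score as covariate (adjusted p = 0.0494). Lgals1, a secreted galactose-binding lectin, went from 161 ± 9.01 to 225 ± 12.2 scaled TPM, a rise of 0.48 (adjusted p = 0.00508). Each of the 5 HFHS hearts, at 209.3 to 237.5, lay above the highest CNTL heart, at 171.9.

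Several genes that rise in the core are low in the heart as a whole. Crybb1, a beta-crystallin best known from the eye lens, was at 2.48, 1.59, 2.35, 2.18 and 2.87 scaled TPM in WT CNTL and at 4.67, 3.91, 4.57, 4.78 and 4.46 in WT HFHS, a rise of 0.85 (standard error 0.12, adjusted p = 0.00508). Its neighbour Cryba4, which starts within the same stretch of chromosome 5 (Cryba4 at chr5:112246493-112252518, Crybb1 at chr5:112255815-112269585), rose by 0.58, from 6.96 ± 0.658 to 10.7 ± 1.64 (adjusted p = 0.0490). It was called in 1 of the 10 fits with a mouse left out, and its adjusted p was 0.120 with WT CNTL replicates 2 and 4 averaged. Of the 10 crystallin genes tested, these 2 were called. Pde11a, a phosphodiesterase that breaks down cyclic AMP and cyclic GMP, rose 2.83-fold, from 0.781 ± 0.260 to 2.21 ± 0.387 scaled TPM. Capn3, the calpain protease of striated muscle, rose 2.02-fold, from 1.41 ± 0.164 to 2.85 ± 0.551. Frmpd3, a scaffold protein gene on the X chromosome, rose 2.22-fold, from 0.734 ± 0.125 to 1.63 ± 0.213. The adjusted p was 0.00508 for Pde11a, Capn3 and Frmpd3 alike, and in each the groups were apart.

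Other core genes rose by less. Aplp2, a relative of the amyloid precursor protein, went from 122 ± 6.88 to 150 ± 5.16 scaled TPM (log2 fold change 0.31, adjusted p = 0.00553). P4ha2, a subunit of the enzyme that hydroxylates proline in collagen, went from 27.9 ± 0.536 to 35.9 ± 2.41 (0.36, adjusted p = 0.00588). Nacc2, a BTB-domain repressor of transcription, went from 7.78 ± 0.272 to 10.6 ± 0.771 (0.43, adjusted p = 0.00508). None of these passed without rescaling the TPM, where the adjusted p was 0.147, 0.0833 and 0.0753.

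The core genes that fell were led by Cdkl1, a cyclin-dependent kinase-like gene on chromosome 12. It stood at 7.27, 10.6, 7.14, 9.13 and 8.96 scaled TPM in WT CNTL and at 5.45, 4.71, 3.96, 2.87 and 4.69 in WT HFHS. The lowest CNTL heart was above the highest HFHS heart, and the fall was -0.93 on the log2 scale (standard error 0.14, adjusted p = 0.00508). Scgb1c1, a secretoglobin, had the deepest fall of all called genes, -1.07 (standard error 0.19, adjusted p = 0.0109), from 17.0, 22.0, 13.9, 19.6 and 26.5 scaled TPM to 9.89, 12.2, 6.50, 10.2 and 7.15. Ndrg4, a gene linked to growth of heart muscle, fell by 0.65 on the log2 scale, from 116 ± 6.78 to 74.2 ± 4.31 (adjusted p = 0.00889). In both genes the groups were apart.

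Smaller falls in the core came from genes of several kinds. Sra1, whose RNA and protein act with steroid receptors, went from 47.6 ± 3.81 to 35.9 ± 2.47 scaled TPM (-0.40, adjusted p = 0.00508). Ehd4, a gene of endosome recycling, went from 126 ± 9.87 to 96.5 ± 4.11 (-0.39, adjusted p = 0.00947). Agk, a lipid kinase of mitochondria, went from 8.17 ± 0.302 to 6.41 ± 0.408 (-0.33, adjusted p = 0.00508). Tob1, an antiproliferative gene, went from 16.4 ± 0.648 to 13.1 ± 0.971 (-0.32, adjusted p = 0.0116). Ccnd2, cyclin D2 of the cell cycle, went from 32.4 ± 1.18 to 20.4 ± 4.03 (-0.68, adjusted p = 0.0125). With the TPM as deposited Ehd4, Tob1 and Ccnd2 did not pass, at adjusted p = 0.0847, 0.0856 and 0.0529. The WT CNTL values of Ccnd2 all lay between 30.9 and 33.8, and those of WT HFHS between 16.9 and 27.1.

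**Figure D2:**
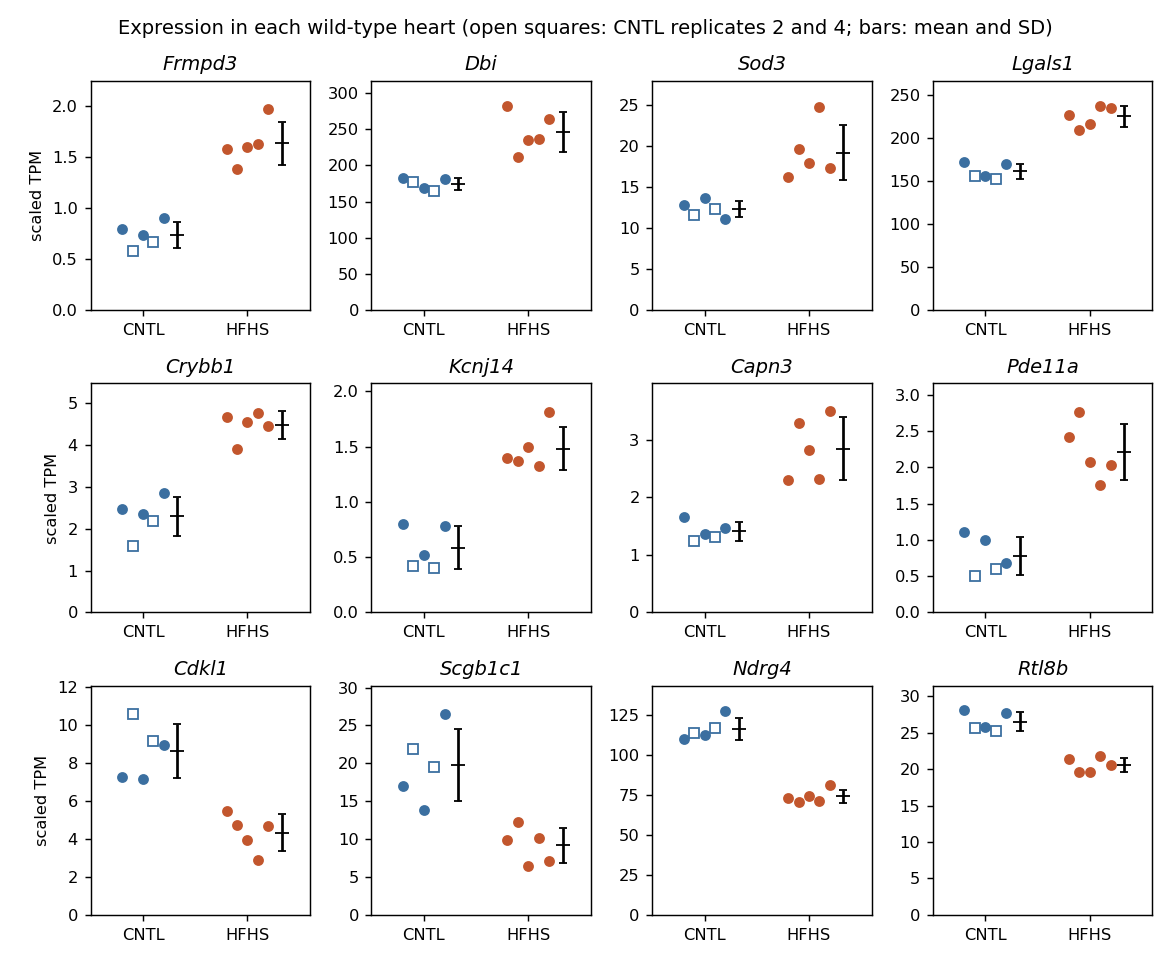
Scaled TPM of 12 called genes in each of the 5 WT CNTL (blue) and 5 WT HFHS (orange) hearts, with black bars for mean and SD and open squares for WT CNTL replicates 2 and 4. In every panel the points of the groups do not overlap, and those of Kcnj14, for example, lay at 0.400 to 0.802 in WT CNTL and at 1.33 to 1.81 in WT HFHS.

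Fat and ketone genes moved in both directions. Of 40 genes of fatty acid oxidation and ketone use tested, 4 were called higher and 1 lower, and 18 had an unadjusted p under 0.05, where 16.5% of all tested genes did. The median log2 fold change over the list was 0.09, against 0.0002 over all genes tested. Acads, Cpt2 and Decr1 were among those that rose. Acads, which starts the oxidation of short-chain fatty acids, went from 175 ± 16.0 to 222 ± 18.6 scaled TPM (log2 fold change 0.34, adjusted p = 0.0222). Cpt2, which rebuilds acyl-CoA from acylcarnitine inside the mitochondrion, went from 136 ± 9.76 to 170 ± 11.5 (0.33, adjusted p = 0.0279). Decr1, needed to oxidise polyunsaturated fatty acids, went from 174 ± 11.7 to 230 ± 34.2 (0.39, adjusted p = 0.0459). In each of the 3 the groups were apart.

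The gene of the list that fell was Oxct1, which encodes the enzyme that lets the heart burn ketone bodies. It stood at 628.2, 674.3, 528.5, 672.5 and 672.0 scaled TPM in WT CNTL and at 487.1, 532.5, 461.3, 408.0 and 441.8 in WT HFHS. Only WT CNTL replicate 3, the heart with atrial markers, reached into the HFHS range, and the fall was -0.45 (standard error 0.10, adjusted p = 0.0302). Slc16a7, a monocarboxylate carrier that takes up ketone bodies, lactate and pyruvate, also fell, from 4.71 ± 0.698 to 2.53 ± 0.689 (-0.80, adjusted p = 0.0382), with groups apart.

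For uptake and binding of fatty acids, 3 of 21 tested genes rose and 1 fell (median 0.03). Fabp3, the fatty acid binding protein of heart muscle, stood at 4983, 4999, 4505, 4870 and 5201 scaled TPM in WT CNTL and at 6193, 5672, 6268, 5289 and 6020 in WT HFHS. The groups were apart and the rise was 0.26 (standard error 0.06, adjusted p = 0.0295). Lmf1, the factor that folds lipases in the endoplasmic reticulum, rose by the same 0.26 (19.7 ± 0.558 to 23.7 ± 1.81, adjusted p = 0.0466). Lpl, the lipoprotein lipase that frees fatty acids from triglyceride at the capillary wall, fell from 2023 ± 171 to 1664 ± 148 (-0.28, adjusted p = 0.0462), and here the groups overlapped. So the lipase fell while the gene for its folding factor rose.

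Genes of the peroxisome and of lipid signalling outside those lists were named after their values were seen. Ephx2, the soluble epoxide hydrolase, rose by 0.41 (174 ± 13.0 to 233 ± 20.7 scaled TPM, adjusted p = 0.0381). Pex11a, which multiplies peroxisomes, rose by 0.44 (14.9 ± 1.33 to 20.5 ± 3.26, adjusted p = 0.0490). Me1, the malic enzyme that makes NADPH in the cytosol, was the called member of the 42 tested genes of sterol and fatty acid synthesis, and rose by 0.37 (68.7 ± 3.88 to 89.4 ± 9.49, adjusted p = 0.0173).

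Genes driven by PPAR alpha had values in both directions. Of 27 tested, 2 were called, both higher, Fabp3 among them, 13 had an unadjusted p under 0.05, 16 had a positive and 11 a negative log2 fold change, and the median was 0.04. The standard target genes Pdk4, Ucp3 and Cpt1a, chosen after their values were seen, had negative values that did not pass. Pdk4, the kinase that shuts off pyruvate oxidation, spread widely, at 564.6, 341.2, 560.8, 344.5 and 571.8 scaled TPM in WT CNTL and 161.1, 194.0, 547.5, 239.1 and 358.6 in WT HFHS (-0.77, standard error 0.39, adjusted p = 0.338). WT HFHS replicates 3 and 5 lay within the CNTL range and the other mice below it. Ucp3, a mitochondrial carrier, went from 65.0 ± 9.63 to 41.8 ± 16.1 (-0.69, adjusted p = 0.203). Cpt1a, the liver-type carnitine palmitoyltransferase, had groups that did not overlap, at 23.5 to 29.0 in WT CNTL and 16.8 to 21.7 in WT HFHS, yet missed the threshold (-0.40, adjusted p = 0.0670).

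Of the fat and ketone genes named here, Dbi kept its call with WT CNTL replicates 2 and 4 averaged. For the others the adjusted p was then between 0.0566 (Me1) and 0.132 (Pex11a). With a mouse left out, Me1 was called in 8 of 10 fits, Acads in 6, Cpt2 and Fabp3 in 4, Oxct1 in 3, Decr1, Ephx2, Slc16a7, Lpl and Pex11a in 2 and Lmf1 in 1. All of these lost their call without WT CNTL replicate 2 and without WT CNTL replicate 4, which for Me1 were the only such mice, and the highest adjusted p was 0.132 (Pex11a). Their direction stayed the same.

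**Figure D3:**
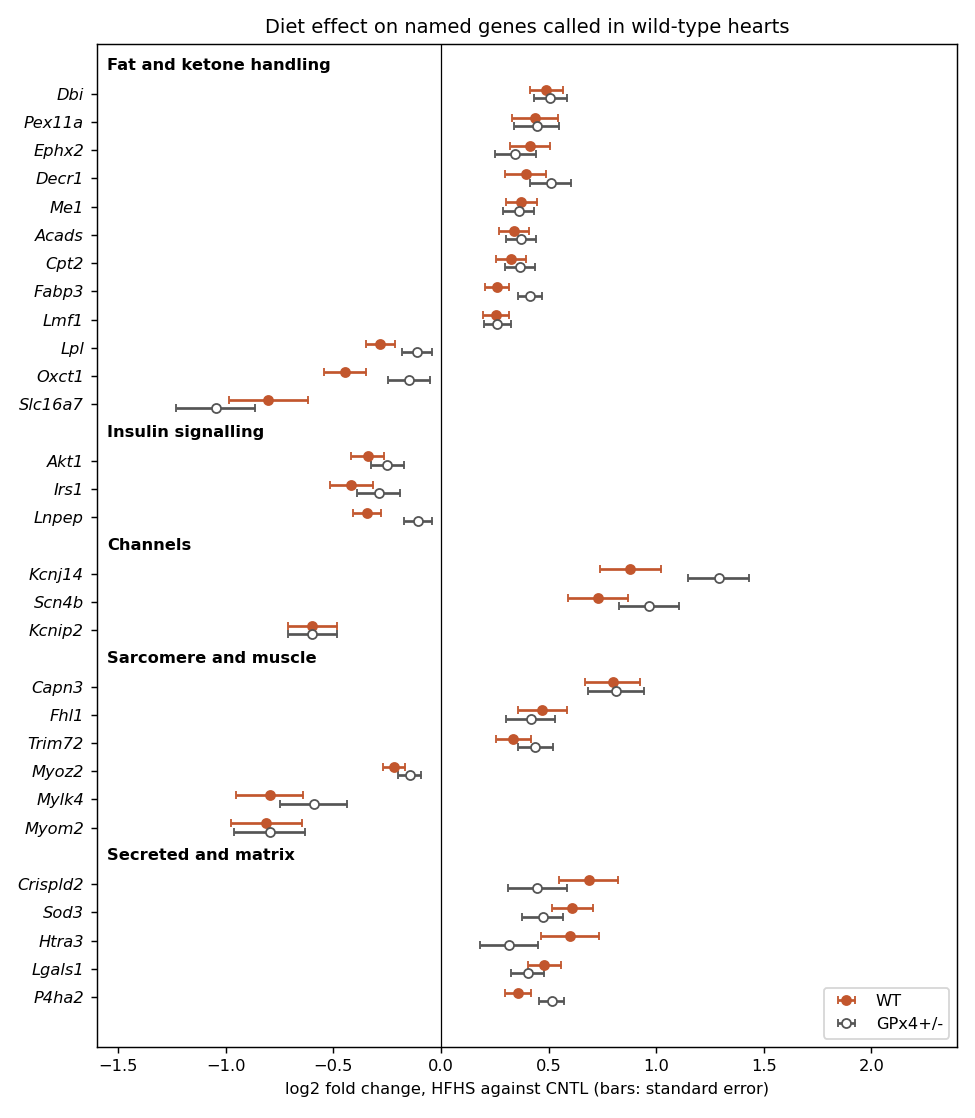
Log2 fold change of HFHS against CNTL, with standard error, for named called genes grouped by role, in WT hearts (filled orange) and in GPx4+/- hearts (open grey). Kcnj14 rose by 0.88 in WT and 1.29 in GPx4+/-, and Oxct1 fell by 0.45 in WT and stood at -0.15 in GPx4+/-.

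Of 45 tested genes of insulin signalling 2 were called, both lower, where 0.526% of all tested genes were called lower, and the list median was -0.004. Akt1, the kinase in the middle of the insulin pathway, stood at 98.5, 90.8, 83.7, 90.4 and 93.5 scaled TPM in WT CNTL and at 76.9, 72.3, 67.6, 66.8 and 76.8 in WT HFHS. The groups were apart (-0.34, standard error 0.08, adjusted p = 0.0336). Irs1, the docking protein of the insulin receptor, fell from 3.58 ± 0.457 to 2.57 ± 0.495 (-0.42, adjusted p = 0.0459), with overlap. Lnpep, the insulin-regulated aminopeptidase of the vesicles that carry the glucose transporter GLUT4, was named after its values were seen. It fell from 25.8 ± 0.915 to 20.2 ± 1.66 (-0.34, adjusted p = 0.0132) and belongs to the core. With WT CNTL replicates 2 and 4 averaged, the adjusted p was 0.0291 for Lnpep, 0.0763 for Akt1 and 0.111 for Irs1. With a mouse left out Akt1 was called in 3 of 10 fits and Irs1 in 2 of 10, and their highest adjusted p was 0.0816 and 0.121.

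No gene was called by limma among the 49 tested for glucose uptake, glycolysis and pyruvate oxidation, with a median of -0.02 and 9 at an unadjusted p under 0.05, a share near the 16.5% of all tested genes. The genes with the smallest p were Ldha, the lactate dehydrogenase subunit A (429 ± 42.4 to 522 ± 39.1 scaled TPM, 0.28, adjusted p = 0.0536), and Pfkl, a phosphofructokinase (59.4 ± 4.89 to 71.9 ± 2.73, 0.27, adjusted p = 0.0547). Both passed in GPx4+/- hearts, at adjusted p = 0.0188 and 0.00304.

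Of 41 ion channel genes tested, 2 rose and 1 fell, beside 0.659% higher and 0.526% lower over all tested genes. Kcnj14, an inward rectifier potassium channel, went from 0.802, 0.420, 0.520, 0.400 and 0.783 scaled TPM in WT CNTL to 1.40, 1.37, 1.49, 1.33 and 1.81 in WT HFHS (0.88, standard error 0.14, adjusted p = 0.00508). Scn4b, a beta subunit of the cardiac sodium channel, went from 26.3, 19.9, 23.5, 19.9 and 25.8 to 39.5, 38.2, 55.6, 30.4 and 32.6 (0.73, standard error 0.14, adjusted p = 0.0141). Both had groups apart. Kcnip2, the subunit that the transient outward potassium current of the heart needs, fell from 74.9 ± 10.3 to 49.5 ± 8.38 (-0.60, standard error 0.11, adjusted p = 0.0151). Its groups overlapped through WT CNTL replicate 3, at 57.4, and WT HFHS replicate 2, at 59.4. With WT CNTL replicates 2 and 4 averaged, Kcnj14 passed (adjusted p = 0.0184), and Scn4b and Kcnip2 were both at 0.0542. Without WT CNTL replicate 2 Kcnip2 was at 0.0519, and Scn4b lost its call without WT CNTL replicate 2 and without WT CNTL replicate 4, with a highest value of 0.0525.

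In the contractile apparatus, 2 of 43 tested sarcomere and Z-disc genes fell and none rose (0.526% lower over all tested genes). The log2 fold change was negative for 33 of the 43, with a median of -0.13, and for 5978 of all 11983 genes. Myom2, which ties thick filaments together at the M-band, stood at 345.0, 368.8, 345.2, 347.9 and 391.8 scaled TPM in WT CNTL and at 251.4, 223.9, 144.0, 192.7 and 229.5 in WT HFHS. The lowest CNTL heart was far above the highest HFHS heart (-0.81, standard error 0.16, adjusted p = 0.0210). Myoz2, which binds calcineurin at the Z-disc, fell from 810 ± 33.7 to 696 ± 36.3 (-0.22, adjusted p = 0.0490), with overlap. Of the 12 cardiomyocyte markers, 9 had negative values (median -0.105), and the part of that in the sarcomere genes was not tested.

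Outside the sarcomere list, and named after their values were seen, Mylk4 and Trim72 moved in opposite directions. Mylk4, of the myosin light chain kinase family, fell from 117 ± 21.5 to 68.0 ± 14.4 (-0.79, adjusted p = 0.0179) and belongs to the core. Trim72, which seals tears in the muscle membrane, rose from 176 ± 12.5 to 222 ± 20.2 (0.34, adjusted p = 0.0466). Fhl1, a LIM protein raised in hypertrophied hearts and the called member of 27 tested hypertrophy and fetal cardiac genes, stood at 83.6, 80.6, 91.6, 86.5 and 73.4 in WT CNTL and at 84.1, 117.8, 116.6, 157.5 and 110.5 in WT HFHS (0.47, adjusted p = 0.0490). Its highest value was in WT HFHS replicate 4. Fhl1 and Myoz2 were called in 2 of the 10 fits with a mouse left out and Trim72 in 1, with a highest adjusted p of 0.120, 0.131 and 0.133. Myom2 lost its call without WT CNTL replicate 2, 4 or 5, with a highest value of 0.0661. Myom2, Myoz2, Trim72 and Fhl1 were at 0.0566, 0.116, 0.120 and 0.105 with WT CNTL replicates 2 and 4 averaged.

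Genes of the matrix had mostly positive values, with few calls. The 21 tested collagen chains had a median log2 fold change of 0.35 and 20 of 21 were positive, as were 6005 of all 11983 genes. None was called by limma, with 8 at an unadjusted p under 0.05, beside 16.5% of all tested genes. Col27a1, a fibrillar collagen, was at 0.913 ± 0.276 in WT CNTL and 1.54 ± 0.184 in WT HFHS (0.54, adjusted p = 0.0817). Col18a1, the basement membrane collagen that holds endostatin, was at 3.21, 3.03, 3.56, 2.75 and 2.70 in WT CNTL and at 4.20, 7.25, 3.76, 20.9 and 5.71 in WT HFHS (1.04, adjusted p = 0.115). The highest value again belonged to WT HFHS replicate 4, without which Col18a1 was at 0.66 (adjusted p = 0.203). Among the 26 tested collagen hydroxylases and cross-linking oxidases, P4ha2 was the called gene.

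Marker RNA of other cell types had mostly positive values beside these genes, with sums that overlapped between the groups. All 10 fibroblast markers had positive values (median 0.42), and their sum was 862.4 to 1758 scaled TPM in WT CNTL and 1091 to 1859 in WT HFHS. Smooth muscle markers had a median of 0.83, with 9 of 10 positive, and endocardium and vein markers of 0.43, with 6 of 6 positive. The endocardium and vein markers summed to 30.9 to 110.6 in WT CNTL and to 31.8 to 134.7 in WT HFHS, and the macrophage markers to 120.6 to 193.0 and 150.7 to 240.0. None of the markers in these 4 lists was called by limma. At an unadjusted p under 0.05 there were 4 fibroblast, 7 smooth muscle, 1 endocardium and vein and 2 macrophage markers, of 10, 10, 6 and 11 tested, and the last 2 lists lay near the 16.5% of all tested genes. None of these lists had a marker at 0 in every WT heart. Myh11, the smooth muscle myosin, was at 8.25, 14.4, 11.0, 13.6 and 11.5 in WT CNTL and at 11.3, 22.8, 15.6, 48.1 and 27.1 in WT HFHS (0.91, adjusted p = 0.163), and Lmod1, another smooth muscle gene, at 1.65 ± 0.414 and 3.94 ± 3.38 (0.81, adjusted p = 0.203). Vwf, made by endothelium of veins and endocardium, was at 12.0 ± 4.57 and 27.6 ± 11.1 (1.12, adjusted p = 0.119), and Lum, a fibroblast proteoglycan, at 15.8 ± 6.50 and 25.1 ± 6.02 (0.69, adjusted p = 0.136). Without WT HFHS replicate 4 Lmod1 was at 0.44 (adjusted p = 0.395), and without WT CNTL replicate 3 Lum passed, at 0.90 (adjusted p = 0.0306). The part of cell makeup in the matrix genes was not tested. In these bulk samples more cells of a type and more RNA per cell cannot be told apart.

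Crispld2 and Htra3, secreted proteins named after their values were seen, were called. Crispld2 was at 17.2, 15.5, 26.0, 16.6 and 17.0 scaled TPM in WT CNTL and at 28.4, 35.1, 23.7, 32.9 and 28.5 in WT HFHS (0.69, adjusted p = 0.0188). Htra3, a secreted protease, was at 40.2, 40.6, 57.3, 37.0 and 40.0 and at 57.6, 65.9, 53.8, 88.3 and 62.4 (0.60, adjusted p = 0.0336). In both, WT CNTL replicate 3 was the high control and overlapped WT HFHS replicate 3. With the smooth muscle score as covariate their adjusted p was 0.147 and 0.242, and with WT CNTL replicates 2 and 4 averaged 0.0621 and 0.0905. Crispld2 lost its call without WT CNTL replicate 2, WT CNTL replicate 4 or WT HFHS replicate 2, with a highest value of 0.0690, and Htra3 was called in 3 of the 10 fits with a mouse left out, with a highest value of 0.0925. P4ha2 and Lgals1 were at 0.0539 and 0.0494 with that covariate and at 0.0184 each with the averaged pair.

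The genes that the study followed by PCR, for oxidative stress, iron, nitric oxide and fibrosis, had no call in these libraries. Of the 12 targets 11 were tested, and Ager, the receptor for glycation end products, was under the expression filter at 0.192 ± 0.0969 and 0.146 ± 0.0799 scaled TPM. None of the 11 was called by limma, and 4 had an unadjusted p under 0.05, where 16.5% of all tested genes did. Gpx4 itself, the peroxidase that reduces lipid peroxides, was at 693.7, 707.8, 590.0, 691.7 and 665.1 in WT CNTL and at 743.5, 699.8, 776.9, 600.8 and 733.1 in WT HFHS (0.08, standard error 0.09, adjusted p = 0.679), and in GPx4+/- hearts its means were 305.6 and 351.4. The WT groups overlapped.

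The 4 targets with the lowest p were Cat, Tfrc, Gsta1 and Gsr. Cat, the catalase of peroxisomes, was at 131.2, 129.1, 129.2, 123.5 and 137.0 in WT CNTL and at 154.3, 156.4, 168.4, 140.3 and 158.0 in WT HFHS (0.26, adjusted p = 0.0823), with groups that did not overlap. Tfrc, the transferrin receptor for iron uptake, was at 5.71 ± 1.70 and 11.8 ± 5.82 (0.89, adjusted p = 0.114), and Gsta1, a glutathione transferase, at 3.69 ± 1.42 and 6.84 ± 2.39 (0.82, adjusted p = 0.118). Gsr, glutathione reductase, was at 8.57 ± 0.667 and 10.2 ± 0.618 (0.24, adjusted p = 0.154). For Gpx1, Txn2, Tgfb1, Fth1, Ftl1 and Nos2 the log2 fold change lay between -0.05 (Nos2) and 0.12 (Ftl1) and the adjusted p was at least 0.556, and for Gpx1, Txn2, Tgfb1 and Fth1 the sign turned in some of the alternative settings. In GPx4+/- hearts Tfrc passed, at 1.75 (adjusted p = 0.00243), and so did Cat, at 0.28 (adjusted p = 0.0395). The diet effect on Tfrc was not shown to differ between genotypes (unadjusted p = 0.0431, adjusted p = 0.691).

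Of 52 tested Nrf2 targets and glutathione and peroxide enzymes, 2 were called, Sod3 and Me1, both higher, beside 1.19% of all tested genes called in either direction, which is also the background for the other counts of calls given here. Of 27 tested genes of the integrated stress response, Mthfd2, a mitochondrial enzyme of folate metabolism, rose and Chac1, which breaks down glutathione, fell. Mthfd2 was at 1.26, 1.28, 1.73, 1.66 and 1.33 scaled TPM in WT CNTL and at 2.05, 3.71, 3.29, 3.03 and 2.77 in WT HFHS (0.82, standard error 0.16, adjusted p = 0.0188). Chac1 went from 6.599 ± 0.828 to 4.37 ± 0.569 (-0.54, adjusted p = 0.0255). Both had groups apart, although they are members of the same list. Chac1 is also counted among the 25 tested ferroptosis regulators, where Cisd2, an iron-sulphur protein, was the other call, at 19.6 ± 0.815 and 16.7 ± 0.605 (-0.22, adjusted p = 0.0381). With WT CNTL replicates 2 and 4 averaged, Mthfd2, Chac1 and Cisd2 were at 0.0542, 0.0621 and 0.0905. With a mouse left out they were called in 7, 5 and 2 of the 10 fits, with a highest adjusted p of 0.0666, 0.0661 and 0.0995. Mthfd2 lost its call without WT CNTL replicate 1, WT CNTL replicate 2 or WT HFHS replicate 2.

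Genes lower on HFHS were more frequent on the X chromosome than the background of 0.526% of all tested genes called lower. Of 346 tested X-linked genes, 9 were called lower (2.60%) and 3 higher (0.867%, where the background is 0.659%). No autosome had more than 1.17% lower (chromosome 12). This was noticed after the values were seen, so it has no test. The median over the X-linked genes was -0.04 in WT and -0.03 in GPx4+/-, and 12 X-linked genes were called lower and 5 higher in GPx4+/-, where 1.16% of all tested genes were called lower and 2.18% higher.

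The 9 genes are Rtl8b, Rragb, Armcx4, Rbmx, Tceal8, Rtl8a, Taf9b, Aifm1 and Tspyl2. Rtl8b and Rtl8a derive from the same family of domesticated retrotransposons, lie next to each other (chrX:53669177-53670408 and chrX:53642488-53643682), and are near-identical copies between which reads may be split, so they may not be separate observations. Rtl8b stood at 28.1, 25.6, 25.7, 25.3 and 27.7 scaled TPM in WT CNTL and at 21.4, 19.6, 19.6, 21.8 and 20.5 in WT HFHS (-0.36, standard error 0.05, adjusted p = 0.00508). Rtl8a went from 27.1 ± 1.24 to 22.3 ± 0.618 (-0.27, adjusted p = 0.0272). In both the groups were apart.

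Rragb, a small GTPase that reports amino acids to mTORC1, went from 1.35, 1.601, 1.62, 2.21 and 1.47 to 0.773, 0.949, 0.464, 0.813 and 0.353 (-0.89, standard error 0.15, adjusted p = 0.00545). Armcx4, of the armadillo repeat family of the X chromosome, went from 2.09, 1.86, 2.30, 1.79 and 1.25 to 0.650, 0.702, 0.546, 1.28 and 0.715 (-0.89, adjusted p = 0.00889). Rbmx, an RNA-binding splicing factor, went from 13.5 ± 0.634 to 10.9 ± 0.366 (-0.29, adjusted p = 0.00947). Tceal8, Taf9b, a partner of the basal transcription machinery, and Tspyl2, a nuclear protein, fell by 0.60, 0.44 and 0.35 (adjusted p = 0.0188, 0.0299 and 0.0466), and Aifm1, the mitochondrial flavoprotein that can trigger cell death, fell by 0.22 (adjusted p = 0.0459). The X-linked genes that rose were Frmpd3, Fhl1 and Igsf1, an immunoglobulin-family membrane protein (8.63 ± 2.24 to 15.1 ± 2.57, 0.78, adjusted p = 0.0168). With WT CNTL replicates 2 and 4 averaged, 4 X-linked genes remained called lower (Rtl8b, Rragb, Armcx4 and Rbmx), and without WT CNTL replicate 4 the number was also 4. The deposited TPM, taken without scaling, gave 2, and weighting the libraries by their fit gave 16. Rtl8a, Tceal8, Taf9b, Tspyl2, Aifm1 and Igsf1 lost their call with the averaged pair, at adjusted p between 0.0566 and 0.0856.

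**Figure D4:**
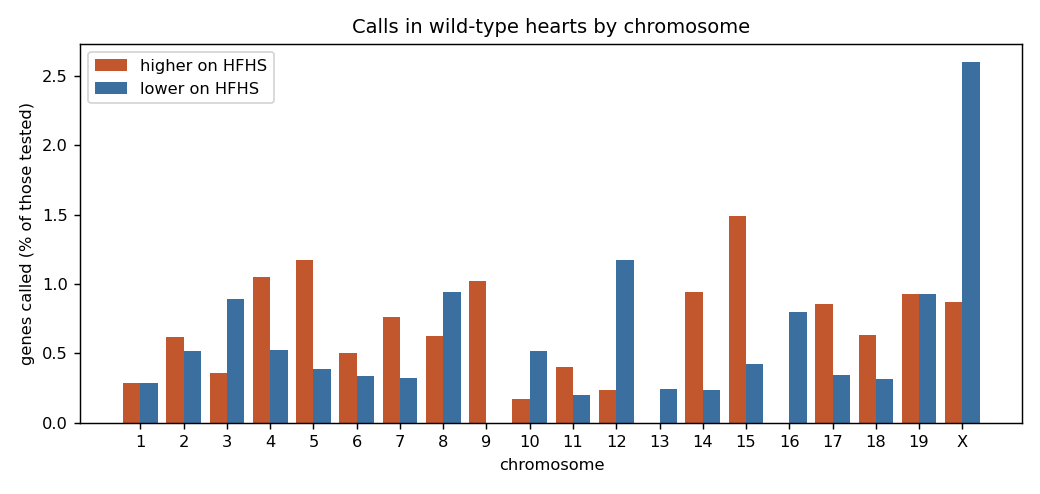
Share of tested genes called higher (orange) or lower (blue) on HFHS in WT hearts, in percent, for each autosome and the X chromosome. The X chromosome has the tallest blue bar, at 2.60% of 346 genes, and chromosome 12 follows at 1.17%.

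Other called genes had larger or smaller changes. BC048679 went from 0.476 ± 0.410 to 1.58 ± 0.680 scaled TPM (1.11, adjusted p = 0.0459). Kctd15 was at 1.22, 1.07, 1.23, 1.25 and 0.981 in WT CNTL and at 4.69, 2.27, 1.19, 3.52 and 2.52 in WT HFHS (0.92, adjusted p = 0.0459), so that WT HFHS replicate 3 sat within the controls. 2210011C24Rik went from 2.96 ± 0.727 to 1.25 ± 0.410 (-0.98, adjusted p = 0.0439) and Sema5b, an axon guidance gene, from 1.66 ± 0.612 to 0.674 ± 0.0759 (-0.84, adjusted p = 0.0228). Ptger4, the prostaglandin E2 receptor EP4 and the called member of 26 tested neurohormone receptors, rose from 1.97 ± 0.387 to 3.20 ± 0.575 (0.59, adjusted p = 0.0369). Of 22 tested genes of amino acid and branched-chain breakdown, 18 were negative, beside 5978 of all 11983 genes, and 1 was called. That gene, Acadsb, an enzyme of branched-chain amino acid breakdown, fell from 84.5 ± 1.54 to 69.0 ± 5.89 (-0.29, adjusted p = 0.0459). With WT CNTL replicates 2 and 4 averaged all 6 lost their call, at adjusted p between 0.0549 (Sema5b) and 0.105 (BC048679 and Acadsb). With a mouse left out, Sema5b was called in 7 of 10 fits, 2210011C24Rik and Ptger4 in 3, BC048679 in 2, and Kctd15 and Acadsb in 1.

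GPx4+/- mice on the same diets share no mouse with the WT comparison. They are littermates, however, and both comparisons come from the same fit with a pooled estimate of the spread, so calls made in both are not independent. There, 400 genes (3.34%) were called, 261 higher (2.18%) and 139 lower (1.16%). Of the 142 WT calls, 134 (94.4%) had the same direction in GPx4+/- hearts, where 62.9% of all tested genes shared their direction between genotypes. An unadjusted p under 0.05 in the same direction was reached by 101 of the 142, and 74 were called, which is 52.1% of the WT calls and 18.5% of the GPx4+/- calls. The median log2 fold change of the 79 higher genes was 0.43 in WT and 0.33 in GPx4+/-, and that of the 63 lower genes -0.38 and -0.28. The WT values chose these genes, so a smaller value in GPx4+/- is no sign of a weaker effect there.

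Dbi, Crybb1, Cdkl1, Scgb1c1, Kcnj14, Scn4b, Kcnip2 and Myom2 were called in both genotypes. In GPx4+/- hearts their log2 fold changes were 0.51 for Dbi, 0.75 for Crybb1, -0.84 for Cdkl1, -1.02 for Scgb1c1, 1.29 for Kcnj14, 0.97 for Scn4b, -0.60 for Kcnip2 and -0.80 for Myom2. Oxct1, Lpl, Akt1 and Irs1 did not pass in GPx4+/- hearts, at -0.15, -0.11, -0.25 and -0.29 (adjusted p = 0.458, 0.405, 0.0767 and 0.122).

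No gene had a diet effect that differed between genotypes after adjustment by limma. At an unadjusted p under 0.05 there were 856 (7.14%) of all genes and 35 of the 142. The WT value that chose the 142 is also part of this difference, so the 35 cannot be set against the 7.14%. The smallest p belonged to Mrtfa, an actin-sensing coactivator of smooth muscle and matrix genes. It stood at 1.63, 1.62, 2.07, 1.63 and 1.65 scaled TPM in WT CNTL and at 2.62, 2.397, 2.82, 2.30 and 2.21 in WT HFHS, a rise of 0.42 (adjusted p = 0.0381), and at -0.21 in GPx4+/- (adjusted p = 0.258, difference adjusted p = 0.482). Vps8, of endosomal sorting, was at -0.35 in WT (adjusted p = 0.00889) and 0.02 in GPx4+/-, and Spns2, an exporter of the lipid sphingosine-1-phosphate, at 0.39 (adjusted p = 0.00545) and 0.04. Kctd15 was at 0.92 and -0.20. Mrtfa was called in 2 of the 10 fits with a mouse left out, and was at 0.0929 with WT CNTL replicates 2 and 4 averaged. For Vps8, Spns2 and Kctd15 the adjusted p of the difference was 0.651.

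**Figure D5:**
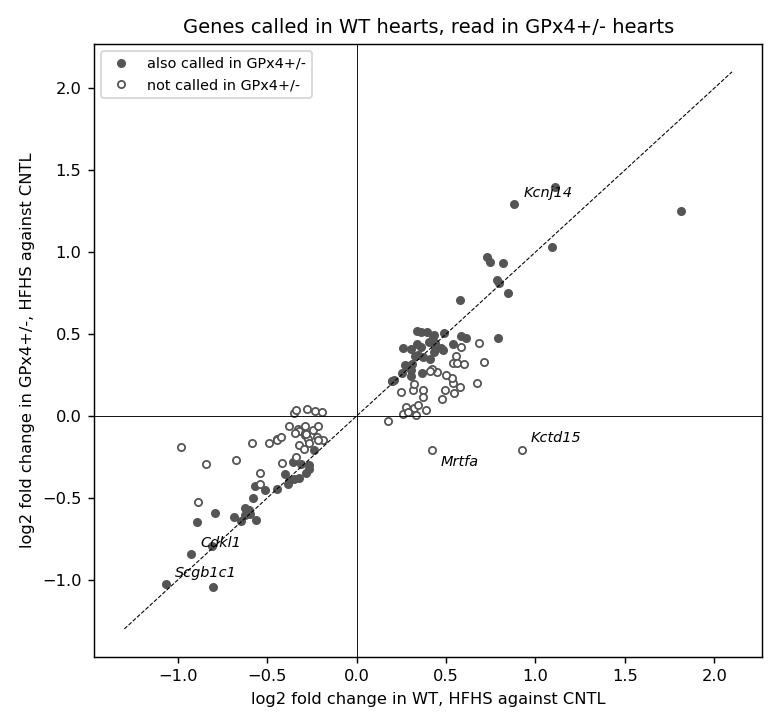
Log2 fold change of HFHS against CNTL in WT hearts (horizontal) and in GPx4+/- hearts (vertical) for the 142 genes called in WT, with filled points for the 74 genes also called in GPx4+/- and a dashed line where both are equal. The WT values chose the genes, and 134 of the 142 lie on the same side of 0 in both genotypes.

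The WT HFHS mice that also drank carnosine share their controls with the WT comparison, so only their levels are given. Cdkl1 was at 4.66 ± 0.900 scaled TPM (SD, n = 5) in these mice, beside 4.34 ± 0.973 in WT HFHS and 8.61 ± 1.43 in WT CNTL. In the same order, Oxct1 was at 467 ± 30.7 beside 466.1 ± 47.0 and 635 ± 62.7, and Fabp3 at 5868 ± 219 beside 5888 ± 406 and 4912 ± 257. Ndrg4 was at 96.2 ± 18.4 beside 74.2 ± 4.31 and 116 ± 6.78. For Cdkl1, Oxct1 and Fabp3 the means of both HFHS groups were closer to each other than the SD of either, and Ndrg4 lay between WT HFHS and WT CNTL.

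When transcripts were tested singly, 46 of 23317 (0.197%) were called, 29 higher and 17 lower. Of these, 35 belong to genes called above and 11 to genes that were not. Their values are estimates that divide reads among overlapping isoforms, and the genes named here were chosen after their values were seen. A transcript of Rusc2 was at 0.749 to 1.38 scaled TPM in WT CNTL and at 2.49 to 4.00 in WT HFHS (1.32, adjusted p = 0.0405, gene adjusted p = 0.182), and a transcript of the small GTPase Rit1 at 4.70 to 5.29 and at 6.67 to 9.87 (0.65, adjusted p = 0.0183, gene adjusted p = 0.270). For Dhdds, which makes the lipid carrier for protein glycosylation, 1 transcript rose by 1.15 (adjusted p = 0.0174) while the gene rose by 0.36 (adjusted p = 0.00947). In the transcripts of Rusc2 and Rit1 no HFHS heart overlapped a CNTL heart.

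Many other groups of genes had no call by limma in WT hearts, and their counts at an unadjusted p under 0.05 stand beside 16.5% for all tested genes. Among 80 tested nuclear genes of the respiratory chain the median was -0.04, with 1 at an unadjusted p under 0.05, and among the 13 transcripts of the mitochondrial genome it was -0.04, with 0. The 21 core clock genes (median -0.07, 5 at an unadjusted p under 0.05), 33 interferon-stimulated genes (0.08, 4), 22 antigen presentation genes (0.15, 2), 35 heat shock protein genes (-0.01, 9), 30 chaperones of the endoplasmic reticulum (-0.04, 5), 30 iron genes (0.03, 7) and 28 genes that clear aldehydes (-0.002, 8) had none either. The 9 tested atrial markers had a median of -0.38 and 0 at an unadjusted p under 0.05. Nppa, the atrial natriuretic peptide, was at 109.8, 135.0, 1585, 141.5 and 136.1 in WT CNTL and at 80.0, 112.2, 28.2, 81.7 and 40.3 in WT HFHS (-1.81, standard error 0.98, adjusted p = 0.370), the value of 1585 being WT CNTL replicate 3. Without that mouse Nppa was at -1.09 (adjusted p = 0.579), and with the atrial marker score, which holds Nppa itself, as covariate at -1.37 (adjusted p = 0.00844).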

How the data were processed

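Left ventricular mRNA of 25 mice was sequenced as stranded polyA libraries. The authors deposited TPM for 119215 Ensembl transcripts per library. The submitters' processing notes name kallisto 0.43.1, sleuth 0.30.0 and GRCm38, while the study's methods describe STAR alignment and DESeq2 for its own tests. The transcript length column was not used. Of these transcripts 116772 matched GENCODE M21 and were summed to 35969 genes.

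Gene sums were divided by a median-ratio factor over 11879 genes present in all libraries, since TPM is a share of the library. The factor did not simply follow the mitochondrial share. It was 1.053 for WT CNTL replicate 3 (41.9% mitochondrial) and 1.028 for WT CNTL replicate 4 (37.3%). Genes with a mean of at least 1 entered log2(value + 0.5) and limma 3.58.1 (R 4.3.3, trended empirical Bayes) on 20 mice in 4 groups, with Benjamini-Hochberg adjustment over 11983 genes. The fits were tested on simulated data. TPM keeps no depth, so precision rests on 5 mice a group. Single values were compared by exact permutation, whose smallest p is 0.00794.

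Members and gene lists were chosen with earlier results of these data known. Named genes were the 12 higher and 12 lower calls of smallest p, the 6 higher and 6 lower of largest change, up to 6 calls of each list or, without calls, up to 2 members of smallest p, the PCR targets, and 5 genes of smallest difference p; those outside the rule are marked as seen first, and a few genes are not reported here. Alternatives were another pseudocount, filter, scaling, weighting, set of mice, replicate block, covariate, single transcripts, each mouse left out and, chosen after seeing the data, WT CNTL replicates 2 and 4 averaged.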

Additional observations from a re-analysis of the deposited data

Results flagged for a closer look

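Within each group of 5 WT mice, a value was picked out when its gap to the nearest mouse took more than 0.71 of the group's whole range. This happened 27 times in 214 groups of values searched, where chance gives about 1 in 20, or 10.7, if the values were independent, which genes and marker sums of the same mice are not. All values are in scaled TPM.

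WT CNTL replicate 3 was the source of most of them. It had the highest Nppa (1585), Htra3 (57.3), Lum (27.05), Crispld2 (26.02), Vwf (20.11) and Mrtfa (2.066) and the lowest Nos2 (2.363) of its group. Its sums of markers were the highest for atrial cardiomyocytes (4783), fibroblasts (1758), endocardium and vein (110.6), valve and cartilage-like cells (99.09), Schwann cells and nerve (16.25) and mesothelium (5.695), and the lowest for pericytes (284.2). Without this mouse 202 genes were called, of which 115 are among the 142.

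WT HFHS replicate 4 had the highest Col18a1 (20.9), Lmod1 (9.82), Tceal8 (5.317) and Armcx4 (1.284), the highest sum of liver markers (15.59) and the lowest sum of pericyte markers (295.6). Among the remaining mice, WT CNTL replicate 5 was highest for Mylk4 (155.3) and Cpt2 (152.9), WT CNTL replicate 2 for Sema5b (2.714) and WT CNTL replicate 1 for BC048679 (1.185), and WT CNTL replicate 1 had the lowest sum of smooth muscle markers (333.4). WT HFHS replicate 5 was highest for Ptger4 (4.212) and for the sum of skeletal muscle markers (13.64).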

How the results depend on the processing

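The number of genes called between WT CNTL and WT HFHS (142 as reported) was 43 with no filter on low values, 38 with the TPM as deposited, 405 with array weights, 74 when only these 2 groups were fitted, 31 with the smooth muscle and 284 with the atrial marker score as covariate, 77 without WT CNTL replicate 3 and WT HFHS replicate 4 together, 46 for transcripts tested singly and, chosen after seeing the data, 36 with WT CNTL replicates 2 and 4 averaged. Leaving out a mouse gave 36 to 202. A pseudocount of 0.1, a minimum of 5, quantile normalization and all 5 groups in the fit gave 115 to 143. Calls were split 55.6% higher as reported, and between 50.0% (quantile normalization, and only these 2 groups fitted) and 67.7% (smooth muscle covariate) over the settings, with 50.6% without WT HFHS replicate 5 and 65.9% without WT HFHS replicate 4.

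The replicate numbers are not stated to pair mice, and the correlations of same-numbered WT mice ran from -0.24 to 0.23. With the replicate block 68 genes were called, all among the 142. In GPx4+/- hearts the count of 400 became 235 with no filter and 124 with only these 2 groups, and 306 to 424 otherwise. None of the alternatives run for it gave a gene whose diet effect differed between genotypes by limma.

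Of the values of named genes under the alternatives, 1505 kept their direction and side of the threshold, 485 lost and 19 gained their call, and 16 turned sign, all of them in PCR targets near 0. Txn2 was at -0.016 with quantile normalization and -0.01 to 0.051 with a mouse left out. Gpx1 was at 0.008 and 0.028 with the smooth muscle and atrial covariates and -0.066 to 0.054 with a mouse left out. Tgfb1 was at -0.022 with the smooth muscle covariate, -0.01 without WT CNTL replicate 3 and WT HFHS replicate 4, and up to 0.126 with a mouse left out. Fth1 was at -0.005 with quantile normalization, -0.009 with array weights and -0.028 to 0.046 with a mouse left out. The cause was not tested. Depth is unknown, so which low genes it limits cannot be said.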
